A study of Homo sapiens with 12 samples.

Results

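The relapses described here are the 6 HEL cultures that regrew after doxorubicin, with cytarabine in 3 of them (Doxo+Cyta, replicates 19, 20 and 22) and without it in the other 3 (Doxo, replicates 4, 5 and 6). They were chosen by the treatment that the sample labels give, are 6 of the 12 samples of the series, and were compared across all 14164 genes with enough counts to be tested. HEL is an established human erythroleukemia cell line that grows through an active JAK2 kinase, and the cells carried DNA barcodes for lineage tracing. In each group, equal numbers of cells were incubated for 72 to 74 h with 1.8 µM doxorubicin, alone or with 6 µM cytarabine, washed, and regrown in drug-free medium for about 30 days until the seeded number was reached again. The comparison asks how the transcriptome of a relapse differs when cytarabine was part of the treatment. Both groups had received doxorubicin, every culture is the outgrowth of the cells that survived, and RNA was collected weeks after the drugs were removed. Cells of the same line cultured without these drugs (NT, 2 samples) are given beside some values. They, and 4 relapses that had also met 0.1 µM decitabine, helped to estimate the spread in the fit and are compared with nothing below.

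Doxorubicin is an anthracycline that traps topoisomerase II on cut DNA. Cytarabine is a cytidine analog that is phosphorylated inside the cell, first by deoxycytidine kinase, and stops DNA synthesis once built into the strand. Surviving cells answer growth factors, cytokines and stress through immediate early genes, transcription factor genes of the FOS, JUN, EGR and NR4A families that are switched on within minutes through factors already present in the cell and whose RNAs are short lived. In cells with working p53, DNA damage acts on a partly shared set of genes through that factor. The paper describes the p53 mutation of HEL cells as a loss of function and reports it in every treatment group.

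Before the genes, the libraries themselves differed in one respect that touches every result. The 6 libraries held between 14155038 and 17823014 counts. The distance between libraries, as the root-mean-square difference of log2 CPM (a count divided by its normalized library total) over all tested genes, was 0.30 between Doxo replicates 5 and 6 and 0.36 between Doxo+Cyta replicates 19 and 22. Doxo replicate 4 lay 0.53 and 0.52 from the other Doxo libraries, and Doxo+Cyta replicate 20 lay 0.58 and 0.57 from the other libraries of its group. Distances between the groups ran from 0.45 to 0.69, so that replicates 4 and 20 lay farther from their own groups than the nearest pair of libraries across groups. When principal components were taken over these 6 libraries from the 500 genes that varied most, the first (41.1% of the variance) nevertheless held all 3 Doxo+Cyta libraries on one side, from 10.5 to 15.2, and all 3 Doxo libraries on the other, from -12.9 to -11.2. The second component (27.4%) held replicates 20 and 4 at 17.2 and 10.9 and the other 4 libraries between -9.26 and -5.54.

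Markers of the HEL line were present in all 6 libraries. GATA1, the master factor of the erythroid and megakaryocytic lineages, lay between 286 and 421 CPM, the fetal globin gene HBG2 between 5094 and 6411 CPM, and the platelet integrin gene ITGA2B between 1223 and 1713 CPM. None of the 10 genes chosen as markers of the line passed the test between the groups. Of 18 markers of tissues outside the blood, 4 (EPCAM, KRT5, COL1A2 and ALB) had no count in any of the 6 libraries, 5 passed 1 CPM in some library, and their summed level was 188 to 205 CPM in Doxo and 196 to 222 CPM in Doxo+Cyta, with the endothelial and platelet gene PECAM1 the most abundant. Of 19 lymphoid markers in the table, 4 (CD3G, MS4A1, PAX5 and EBF1) had no count, and the summed level was 170 to 199 CPM in Doxo and 163 to 218 CPM in Doxo+Cyta, with CD7 the most abundant.

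Between the groups, 53 genes differed by more than 2-fold at an adjusted p under 0.01, or 0.374% of the genes tested. Of these, 44 were lower in Doxo+Cyta (0.311%) and 9 higher (0.0635%). With no limit on the fold and an adjusted p under 0.05, 481 genes differed (3.4%), with 329 lower (2.32%) and 152 higher (1.07%), and the median log2 fold change of all tested genes was 0.01. Log2 fold changes here are those of Doxo+Cyta over Doxo, so that a negative value is lower where cytarabine had been added, and tests are edgeR's quasi-likelihood test with Benjamini-Hochberg adjustment over all tested genes. Called below means an adjusted p under 0.05. For every list count below, the shares of all tested genes to compare with are 2.32% lower and 1.07% higher. Of the 481 called genes, 478 did not overlap between the 3 libraries of one group and the 3 of the other, against 21% of all tested genes. The calls come from a test on these same libraries, so this separation follows largely from the call and is no separate evidence.

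**Figure D1:**
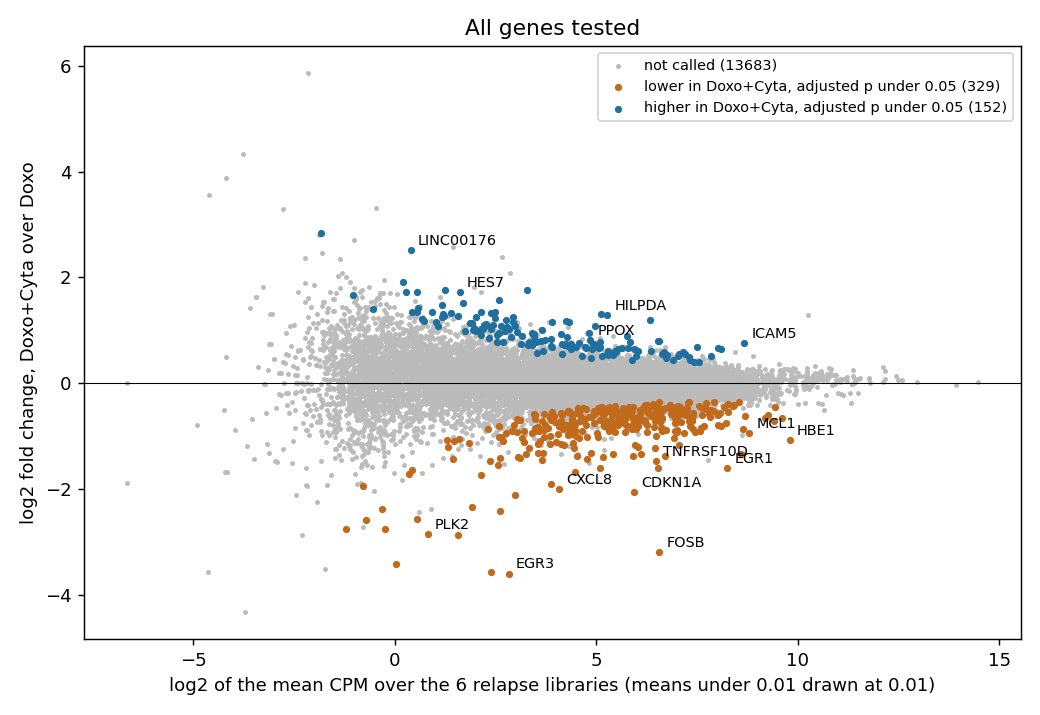
Each point is 1 of the 14164 tested genes, with the log2 of its mean CPM over the 6 relapse libraries on the horizontal axis and its log2 fold change on the vertical axis. The 329 genes called lower reach farther from 0 than the 152 called higher, with FOSB at -3.20 and EGR3 at -3.60 among the lowest.

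The number of calls moved with the libraries used. Leaving out Doxo replicate 4 raised the genes called at an adjusted p under 0.05 from 481 to 877 (423 higher, 454 lower), and leaving out both replicates 4 and 20 raised them to 1261 (533 higher, 728 lower). Leaving out Doxo+Cyta replicate 20 alone gave 550. Replicates 4 and 20 were singled out for their distance from their own groups, so leaving them out narrows the spread within groups. The added calls and smaller p-values of those fits are therefore no separate evidence. Without Doxo replicate 5, Doxo replicate 6, Doxo+Cyta replicate 19 or Doxo+Cyta replicate 22, the counts fell to 168, 186, 130 and 373. With a model of these 6 libraries alone, which estimates the spread without the other groups, 67 genes were called, 61 of them lower, and 42 of the 65 called genes of the naming rule lost their call. Of the 481 genes, 111 were called in every one of the 6 fits that leave out a library, 95 lower and 16 higher, and at least 480 had the same sign in each of those fits.

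**Figure D2:**
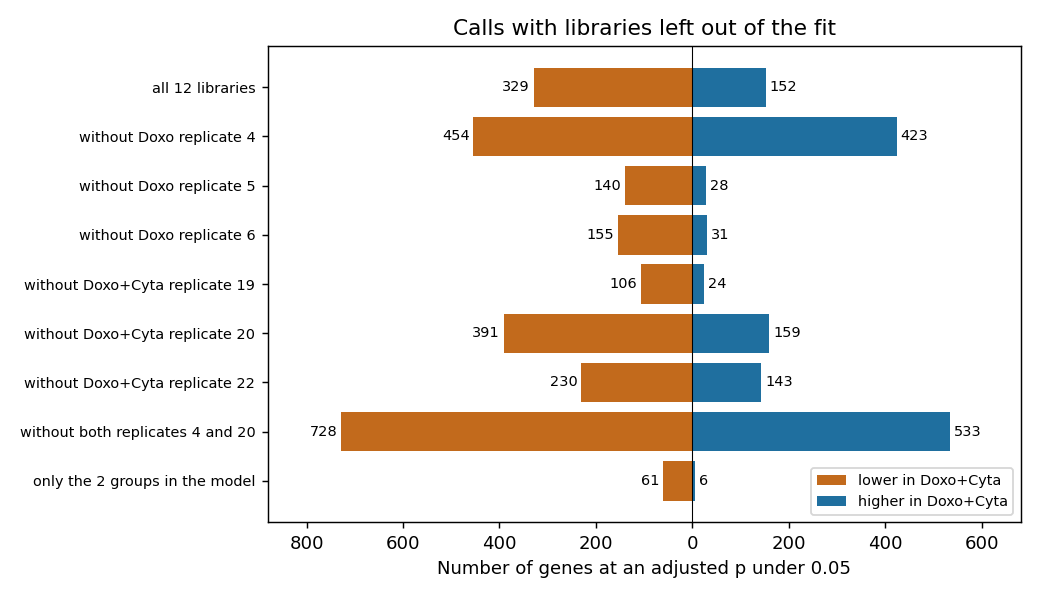
Bars give the number of genes at an adjusted p under 0.05, lower in Doxo+Cyta to the left and higher to the right, with all 12 libraries in the model, with libraries left out, and with only the 2 groups in the model. Lower genes outnumber higher genes in each of the 9 fits, from 61 against 6 to 728 against 533.

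The immediate early genes made up the most affected of the gene lists examined. Of 38 genes in the list, 36 were tested, 24 were lower in Doxo+Cyta (66.7%, against 2.32% of all tested genes), none was higher and 12 did not pass. Their median log2 fold change was -0.94, and 27 of the 36 had every Doxo+Cyta library below every Doxo library, against 10.4% of all tested genes. The mean log2 CPM of the list was 5.55 to 5.76 in the 3 Doxo libraries, 4.26, 4.77 and 4.36 in Doxo+Cyta replicates 19, 20 and 22, and 4.25 and 4.24 in the NT libraries. Leaving out a library gave between 14 and 29 genes lower and none higher, with medians between -1.03 and -0.83. The count was 14 without Doxo+Cyta replicate 19 and 29 without Doxo+Cyta replicate 20, and 14 of the 24 genes were called in all 6 fits. With only the 2 groups in the model 13 were lower.

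FOSB, which codes for a FOS family partner of JUN proteins in the AP-1 factor, lay on chromosome 19 from 45467995 to 45475179 (GRCh38). Its level was 210, 152 and 150 CPM in Doxo replicates 4, 5 and 6, against 17.5, 19.6 and 18.7 CPM in Doxo+Cyta replicates 19, 20 and 22 and 6.38 and 8.22 CPM in NT. The Doxo+Cyta libraries were close to one another and far below Doxo, a log2 fold change of -3.20 (SE 0.26, adjusted p = 9.54e-05), and it stayed between -3.28 and -3.01 with any library left out.

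The EGR family codes for zinc finger transcription factors that ERK signalling induces through serum response factor. EGR1 was at 493, 445 and 444 CPM in Doxo and 87.7, 243 and 123 CPM in Doxo+Cyta, with 258 and 235 CPM in NT. Its log2 fold change was -1.61 (SE 0.27, adjusted p = 0.00579), and replicate 20 had the highest level of its group. The adjusted p was 2.55e-05 without replicate 20 and 0.0619 with only the 2 groups in the model. EGR2 was at 10.6, 9.20 and 9.28 CPM in Doxo and at 0.371, 1.47 and 0.611 CPM in Doxo+Cyta (log2 fold change -3.57, SE 0.35, adjusted p = 0.000243). Its NT values were 0.566 and 0.655 CPM. EGR3 was at 21.5, 10.2 and 7.89 CPM in Doxo and at 1.24, 1.2 and 0.794 CPM in Doxo+Cyta (log2 fold change -3.60, SE 0.39, adjusted p = 0.000466), a fold that does not differ from that of EGR2 beyond their errors. In NT it was at 0.514 and 0.834 CPM. EGR4 went with them at -2.88, although it was under 10 CPM in every library.

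FOS was at 28.5, 19.6 and 22.0 CPM in Doxo and 5.87, 9.34 and 3.48 CPM in Doxo+Cyta (log2 fold change -1.91, SE 0.31, adjusted p = 0.00552). FOSL1 and FOSL2, other FOS relatives, changed by -1.61 and -1.01, and the adjusted p of FOSL2 was 0.053 without Doxo+Cyta replicate 19. JUN, the main partner of FOS proteins, was at 208, 262 and 272 CPM in Doxo and at 129, 125 and 141 CPM in Doxo+Cyta, with 64.1 and 55.2 CPM in NT (a log2 fold change of -0.91 with SE 0.13, adjusted p = 0.00241). JUNB was called at -0.79 (SE 0.20, adjusted p = 0.0414), with 144, 279 and 153 CPM in Doxo+Cyta against 314 to 347 CPM in Doxo. That call was kept without replicate 20 (adjusted p = 0.000144) and lost without any of the other 5 libraries (adjusted p up to 0.15). JUND did not pass (log2 fold change -0.61, SE 0.28, adjusted p = 0.25, and 0.0207 without replicate 20), and its Doxo+Cyta replicate 20, at 299 CPM, lay within the Doxo range of 258 to 363 CPM.

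The orphan receptor genes NR4A1 and NR4A2 were lower by -1.21 and -1.56 on the log2 scale and were called in all 6 fits with a library left out, and NR4A3, at 1.58 CPM or less in every library, did not pass (adjusted p = 0.359). SRF, which codes for serum response factor itself, was at 260, 218 and 213 CPM in Doxo and at 107, 144 and 112 CPM in Doxo+Cyta (log2 fold change -0.93, SE 0.14, adjusted p = 0.00368). ATF3, a stress-induced factor, changed by -1.6, ZFP36, which codes for a protein that speeds the decay of short-lived RNAs, by -0.81, and the phosphatase subunit gene PPP1R15A by -0.71, which was lost without Doxo+Cyta replicate 19 (adjusted p = 0.0517). MCL1, a survival member of the BCL2 family whose RNA and protein turn over fast, was at 651, 556 and 552 CPM in Doxo, 284, 331 and 297 CPM in Doxo+Cyta and 328 and 364 CPM in NT (a log2 fold change of -0.95 with SE 0.11, adjusted p = 0.00104). The other called members were CYR61, KLF6, MAFF, TRIB1, KLF10 and CCNL1, with log2 fold changes from -1.40 (CYR61) to -0.35 (CCNL1), and each lost its call without Doxo+Cyta replicate 19. Members that did not pass included IER2, at 674, 434 and 461 CPM in Doxo and 165, 458 and 176 CPM in Doxo+Cyta (adjusted p = 0.0938, and 0.000173 without replicate 20). MYC was at 273, 224 and 216 CPM in Doxo and at 174, 217 and 172 CPM in Doxo+Cyta (log2 fold change -0.34, SE 0.12, adjusted p = 0.138, and 0.0376 without replicate 20). IER3, ARC and NFIL3 were the 3 members with a positive log2 fold change, none of them called.

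Promoters of 4 of the called immediate early genes are given as background on this class of genes. The sequences are the 250 bases before the RefSeq transcription start in GRCh38.p14, read 5′ to 3′ along the gene. They stand at chr5:138465229-138465478 (plus strand, EGR1), chr19:45467746-45467995 (plus strand, FOSB), chr14:75278578-75278827 (plus strand, FOS) and chr10:62819168-62819417 (minus strand, EGR2). Capitals mark a CArG box, the site bound by serum response factor, or TGACG, the core site of the cAMP response element (CRE), which reads CGTCA on the other strand. The full CRE (TGACGTCA), which contains that core site, and the AP-1 site (TGANTCA) were searched too, on both strands, and neither is in these windows.
EGR1: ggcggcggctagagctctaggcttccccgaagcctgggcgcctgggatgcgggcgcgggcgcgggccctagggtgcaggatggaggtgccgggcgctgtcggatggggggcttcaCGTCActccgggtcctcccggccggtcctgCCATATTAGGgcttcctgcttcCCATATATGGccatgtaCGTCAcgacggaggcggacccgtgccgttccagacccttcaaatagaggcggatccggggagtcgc
FOSB: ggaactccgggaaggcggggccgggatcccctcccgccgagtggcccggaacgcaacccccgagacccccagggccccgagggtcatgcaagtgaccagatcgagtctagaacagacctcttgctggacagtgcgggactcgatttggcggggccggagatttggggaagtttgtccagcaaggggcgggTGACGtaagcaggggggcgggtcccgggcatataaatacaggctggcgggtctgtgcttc
FOS: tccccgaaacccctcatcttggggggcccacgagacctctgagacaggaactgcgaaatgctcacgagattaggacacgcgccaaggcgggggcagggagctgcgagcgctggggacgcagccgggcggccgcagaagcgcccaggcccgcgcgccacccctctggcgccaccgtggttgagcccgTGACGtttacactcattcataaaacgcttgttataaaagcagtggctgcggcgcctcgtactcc
EGR2: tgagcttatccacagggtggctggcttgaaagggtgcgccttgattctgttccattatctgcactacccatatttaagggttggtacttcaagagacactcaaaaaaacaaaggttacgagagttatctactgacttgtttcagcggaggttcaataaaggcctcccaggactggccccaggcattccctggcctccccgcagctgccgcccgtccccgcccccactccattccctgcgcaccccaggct
The EGR1 window holds 2 CArG boxes, 105 to 96 and 83 to 74 bases before the start, and core sites 135 to 131 and 66 to 62 bases before it. The FOSB and FOS windows each hold 1 core site, 60 to 56 and 64 to 60 bases before the start, and the EGR2 window holds none of these motifs. Sequence farther upstream than 250 bases was not searched, so a motif absent here may lie outside the window. RefSeq promoters could be matched for 17 of the 24 called immediate early genes and for 10261 of all tested genes. The core site was in 12 of the 17 windows (70.6%) and in 29.4% of the windows of all tested genes, and the full CRE was in 3 (17.6%) and 2.81%. The CArG box was in 2 (11.8%) and 0.994%, and the AP-1 site in 0 of 17 and 3.89%. Immediate early genes that were not called were not counted apart. The shares therefore describe immediate early genes beside all genes and cannot be tied to the change between the groups. These are matches of letters, and binding was not measured.

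Genes that follow ERK, NF-kB and inflammatory signals held further members that were lower in Doxo+Cyta. CXCL8, which codes for the chemokine interleukin-8, was at 24.3, 30.7 and 26.1 CPM in Doxo and at 4.58, 7.67 and 7.94 CPM in Doxo+Cyta, with 1.39 and 1.37 CPM in NT (a log2 fold change of -2.01 with SE 0.31, adjusted p = 0.00449). PTGS2, which codes for cyclooxygenase-2, was at 37.3, 39.5 and 42.2 CPM in Doxo and at 13.3, 12.9 and 17.9 CPM in Doxo+Cyta (log2 fold change -1.43, SE 0.14, adjusted p = 0.000243). Both were called in every fit with a library left out. DUSP5 and DUSP1, phosphatase genes that feed back on MAP kinases, were lower by -1.12 and -0.77, and the surface activation gene CD69 by -1.23. DUSP5 was lost without Doxo+Cyta replicate 19 (adjusted p = 0.0513), DUSP1 without Doxo replicate 5 or 6 or Doxo+Cyta replicate 19, and CD69 without any library but replicates 4 and 20. Of 24 tested genes in the ERK list, 3 were lower (12.5%, against 2.32% of all tested genes) and none higher, with a median of -0.33. The count was 1 without Doxo+Cyta replicate 19 and 5 without replicate 20. Among those that did not pass were SPRY2 (log2 fold change -0.60, adjusted p = 0.0601, and 0.0334 without replicate 20) and DUSP6 (-0.52, adjusted p = 0.413). The ERK list overlaps the NF-kB list in CXCL8. Of 37 NF-kB genes 3 were lower (8.11%), none was higher and the median was 0.05, with 5 lower without replicate 20. Of 23 JAK-STAT genes none was called (median -0.01).

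Of 29 tested genes that p53 is known to induce, 10 were lower in Doxo+Cyta (34.5%, against 2.32% of all tested genes). The list holds targets known from other cells. The paper describes p53 of HEL as having lost its function, and p53 activity was not measured here. None was higher and 19 did not pass, and the median log2 fold change was -0.52. The count was 5 without Doxo+Cyta replicate 19 and 15 without Doxo+Cyta replicate 20, and 5 genes were called in all 6 fits. With only the 2 groups in the model 5 were lower. CDKN1A, the inhibitor of cyclin-dependent kinases known as p21, was at 128, 84.8 and 81.5 CPM in Doxo and at 11.9, 46.0 and 13.1 CPM in Doxo+Cyta, with 11.1 and 11.4 CPM in NT. Its log2 fold change was -2.06 (SE 0.45, adjusted p = 0.0251), and the call was lost without Doxo replicate 5 or 6 or Doxo+Cyta replicate 19 or 22 (adjusted p up to 0.0967). It was also lost with only the 2 groups in the model (adjusted p = 0.0983). MDM2, which codes for the ligase that degrades p53, was at 235, 165 and 151 CPM in Doxo and at 81.7, 74.5 and 88.2 CPM in Doxo+Cyta (log2 fold change -1.17, SE 0.17, adjusted p = 0.0024). PPM1D, a phosphatase that ends the damage response, was at 41.0, 41.3 and 45.6 CPM in Doxo and at 20.8, 21.9 and 23.5 CPM in Doxo+Cyta (log2 fold change -0.95, SE 0.13, adjusted p = 0.00194).

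The polo-like kinase gene PLK2 (-2.85) and the metabolic phosphatase gene TIGAR (-2.42) had the largest folds of the list and were called in all 6 fits. With only the 2 groups in the model the adjusted p was 0.0326 for PLK2 and 0.0691 for TIGAR. AEN (-1.38), BTG2, TRIAP1 (-0.81) and PMAIP1 were also lower, and AEN was lost without Doxo+Cyta replicate 19 (adjusted p = 0.0552) and TRIAP1 without any library but replicates 4 and 20 (up to 0.0973). BTG2 is also in the immediate early list, at 508, 605 and 538 CPM in Doxo and 181, 266 and 205 CPM in Doxo+Cyta, and its call was lost without Doxo replicate 5 or 6 or Doxo+Cyta replicate 19 or 22 (adjusted p up to 0.123). Other well-known targets had values near 0, among them BAX (log2 fold change 0.24, SE 0.23, adjusted p = 0.585), DDB2 (0.23, SE 0.20, adjusted p = 0.558) and ZMAT3 (-0.15, SE 0.20, adjusted p = 0.72).

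Genes of protein folding stress and of apoptosis contributed a few calls. Of 31 genes of the unfolded protein and heat shock responses, 3 were lower (9.68%, against 2.32% of all tested genes) and none higher (median -0.17). The count lower was 1 without Doxo+Cyta replicate 19 and 6 without Doxo replicate 4. The 3 lower genes were the ER degradation gene HERPUD1 (-0.84, adjusted p = 0.0215), the HSP40 chaperone gene DNAJB1 (-0.75, adjusted p = 0.00457) and DNAJA1 (-0.36, adjusted p = 0.0438), of which DNAJB1 was called in all 6 fits. HERPUD1 was lost without Doxo replicate 5 or 6 or Doxo+Cyta replicate 19, and DNAJA1 also without Doxo+Cyta replicate 22. Of 27 apoptosis genes, MCL1, PMAIP1 and CYCS were lower (11.1%) and none was higher, and MCL1 alone was left without Doxo+Cyta replicate 19. Each of these 3 is counted in another list too, MCL1 as immediate early, PMAIP1 as p53 target and CYCS as OXPHOS. PMAIP1, the NOXA gene, whose product opposes MCL1, was at 53.8, 57.5 and 64.4 CPM in Doxo and at 36.7, 40.0 and 33.4 CPM in Doxo+Cyta (log2 fold change -0.68, SE 0.17, adjusted p = 0.0414), a call that rested on every library but Doxo replicate 4 and Doxo+Cyta replicate 20. BCL2 (-0.06) and BCL2L1 (0.05) did not pass. In the ATF4 and amino acid list 1 of 28 genes was lower, the cystine transporter gene SLC7A11 (-0.90, adjusted p = 0.0352), and its call was lost without any 1 of the 6 libraries, while 6 genes of the list were lower without Doxo+Cyta replicate 20. HMOX1, the heme oxygenase gene, was the only called member of the doxorubicin list, at 27.2, 33.8 and 34.4 CPM in Doxo and 22.2, 20.1 and 16.9 CPM in Doxo+Cyta (log2 fold change -0.69, SE 0.15, adjusted p = 0.0192). It was lost without Doxo replicate 5 or 6 or Doxo+Cyta replicate 22.

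Among abundant genes, with at least 100 CPM in the higher group, those with the smallest p-values in the lower direction were FOSB, TNFRSF10D, BRD2, PPP4R3A, MCL1 and YTHDF2. TNFRSF10D, a decoy receptor for the death ligand TRAIL, was at 140, 126 and 130 CPM in Doxo and at 46.2, 52.5 and 43.9 CPM in Doxo+Cyta (log2 fold change -1.47, SE 0.14, adjusted p = 0.000243). In NT it was at 35.5 and 36.7 CPM. BRD2, a bromodomain reader of acetylated histones, was at 501, 542 and 515 CPM in Doxo, 298, 276 and 278 CPM in Doxo+Cyta and 333 and 349 CPM in NT (a log2 fold change of -0.87 with SE 0.09, adjusted p = 0.000243). BRD2 lies in the MHC region and is annotated on 7 contigs, so that its count sums several copies of the locus. PPP4R3A, a subunit of protein phosphatase 4, and YTHDF2, a reader of N6-methyladenosine that promotes RNA decay, changed by -0.90 and -0.72. Mean CPM was 129 in Doxo, 69.1 in Doxo+Cyta and 74.7 in NT for PPP4R3A, and 207, 126 and 118 for YTHDF2. All 6 were called in each fit with a library left out, and the libraries of the groups were well apart in each.

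Lower genes of low level with large folds included CCR4, a chemokine receptor gene, at 6.77, 6.40 and 5.81 CPM in Doxo and 1.30, 1.00 and 1.41 CPM in Doxo+Cyta (log2 fold change -2.34, SE 0.30, adjusted p = 0.00138). LOC100506747 (-3.41) and LPPR3 (-2.76) were between 0.947 and 2.09 CPM in Doxo and at 0.267 CPM or less in Doxo+Cyta, and LPPR3 was lost without Doxo+Cyta replicate 19. The thrombin receptor gene F2RL3, present on platelets and the only called member of 30 megakaryocyte genes, was at 126, 87.0 and 85.2 CPM in Doxo and at 27.1, 59.3 and 31.4 CPM in Doxo+Cyta (log2 fold change -1.34, SE 0.24, adjusted p = 0.00911, and 0.053 without replicate 19). Many of the lower genes carry zinc finger names (ZNF, ZSCAN, ZKSCAN or ZFP and a number), a group chosen after the values were seen. Of 456 such tested genes 50 were lower (11%, against 2.32% of all tested genes) and 2 higher (0.439%, against 1.07%). Their median log2 fold change was -0.18. The count lower ran from 19 without Doxo+Cyta replicate 19 to 54 without replicate 20 and was 13 with only the 2 groups in the model. With offsets for length and GC content 46 were lower and the median was -0.12.

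The genes higher in Doxo+Cyta were fewer, and mostly of low level. The 9 genes past 2-fold at an adjusted p under 0.01 were LINC00176, DDX11L2, HES7, SMARCD3, ASH1L-AS1, RPARP-AS1, TMEM120A, HILPDA and MFI2-AS1. None of them was left at these limits in the fit without Doxo replicate 5, Doxo replicate 6 or Doxo+Cyta replicate 19, while all 9 kept an adjusted p under 0.05 in every fit with a library left out. SMARCD3, a subunit of the SWI/SNF chromatin remodeller, was at 3.63, 3.26 and 2.27 CPM in Doxo and at 10.9, 7.94 and 8.25 CPM in Doxo+Cyta, with 7.36 and 6.25 CPM in NT (a log2 fold change of 1.56 with SE 0.22, adjusted p = 0.00224). HES7, a bHLH repressor of the Notch pathway, was at 1.61, 1.34 and 1.33 CPM in Doxo, 4.39, 5.47 and 4.22 CPM in Doxo+Cyta and 2.78 and 2.50 CPM in NT (a log2 fold change of 1.72 with SE 0.22, adjusted p = 0.00138). TMEM120A was at 11.7, 23.2 and 24.9 CPM in Doxo, 44, 49.8 and 54.7 CPM in Doxo+Cyta and 18.8 and 14.4 CPM in NT (a log2 fold change of 1.31 with SE 0.22, adjusted p = 0.00656). HILPDA, a lipid droplet gene induced by hypoxia, was at 13.7, 26 and 28.0 CPM in Doxo, 47.4, 50.2 and 67.1 CPM in Doxo+Cyta and 30.2 and 26.4 CPM in NT (a log2 fold change of 1.28 with SE 0.22, adjusted p = 0.00758). In TMEM120A and HILPDA, Doxo replicate 4 was the lowest of all 6 libraries.

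Some of the higher genes carry noncoding names. Of 344 tested genes with antisense names 14 were higher and none lower (median log2 fold change 0.20), and of 172 with LINC names 6 were higher and none lower (0.22). These are 4.07% and 3.49%, against 1.07% of all tested genes. Both groups were chosen after the values were seen. The antisense count was 4 without Doxo+Cyta replicate 19, 17 without Doxo replicate 4, 3 with only the 2 groups in the model and 7 with offsets for length and GC content, and the LINC count ran from 1 to 7 with a library left out and was 0 with only the 2 groups. The fit with offsets leaves out genes that have no GC value. RPARP-AS1 and MFI2-AS1 are among these and could not be called in it. The counting took no account of strand, so that reads of an antisense gene such as ASH1L-AS1 cannot be told apart from those of its partner where the exons overlap. Among abundant genes the smallest p-values in the higher direction were those of ICAM5, AHSA2, TCIRG1, ITGA5, ANKZF1 and FAM65C. ICAM5, an adhesion molecule best known from neurons, was at 285, 312 and 317 CPM in Doxo and at 569, 462 and 505 CPM in Doxo+Cyta, with 369 and 357 CPM in NT (a log2 fold change of 0.75 with SE 0.11, adjusted p = 0.00375), and with offsets for length and GC content 0.55 (adjusted p = 0.0709). ITGA5, the fibronectin receptor subunit, was at 98.1, 128 and 132 CPM in Doxo, 175, 173 and 179 CPM in Doxo+Cyta and 153 and 160 CPM in NT (a log2 fold change of 0.55 with SE 0.11, adjusted p = 0.0153, and 0.053 without Doxo+Cyta replicate 19). TCIRG1, a subunit of the vacuolar proton pump, changed by 0.68 and was lost without Doxo replicate 5 or 6, and AHSA2, an HSP90 cochaperone gene, by 0.56. ANKZF1 (0.54) was lost without Doxo+Cyta replicate 19, and FAM65C (0.65) without that library or Doxo replicate 5 or 6.

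No gene of cytarabine uptake and metabolism was called between the relapses that had and had not met cytarabine. Of 28 genes in the list 24 were tested, with a median of -0.02. DCK, the kinase that activates cytarabine, was at 59.8, 89.8 and 91.3 CPM in Doxo, 65.2, 51.1 and 72.2 CPM in Doxo+Cyta and 61.1 and 68.8 CPM in NT (a log2 fold change of -0.35 with SE 0.17, adjusted p = 0.267). The groups overlapped through Doxo replicate 4, and without that library the adjusted p of DCK was 0.0468. RRM2B, a ribonucleotide reductase subunit gene induced by p53, was at 50.3, 69.5 and 70.3 CPM in Doxo and at 48.4, 33.2 and 49.3 CPM in Doxo+Cyta (log2 fold change -0.54, SE 0.17, adjusted p = 0.1). Its groups did not overlap, and its adjusted p was 0.0318 without Doxo replicate 4, so that 2 genes of the list were lower in that fit. SLC29A1, which codes for the nucleoside transporter that carries cytarabine into the cell, was at 108 to 111 CPM in Doxo and at 96.3 to 128 CPM in Doxo+Cyta (log2 fold change 0.05, SE 0.12, adjusted p = 0.87). SAMHD1, which hydrolyses the active triphosphate, was at 1.6 to 3 CPM in the 6 libraries (log2 fold change -0.22, SE 0.25, adjusted p = 0.664). The 5′-nucleotidase gene NT5C2 and the ribonucleotide reductase gene RRM2 both had a log2 fold change of -0.15 and adjusted p-values of 0.558 and 0.394. CDA, the deaminase that inactivates cytarabine, had too few counts to be tested. The smallest adjusted p was that of NT5C, a deoxyribonucleotidase gene, at 34.8 to 39.3 CPM in Doxo and 42.6 to 60.8 CPM in Doxo+Cyta (log2 fold change 0.48, SE 0.14, adjusted p = 0.0674, and 0.0352 without Doxo+Cyta replicate 22).

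The targets and carriers of doxorubicin, to which both groups had been exposed, were likewise at near levels. TOP2A changed by -0.19 (SE 0.15, adjusted p = 0.5) and TOP2B by -0.13 (SE 0.10, adjusted p = 0.508), the topoisomerase II genes. The efflux pump gene ABCB1 was at 96.9 to 119 CPM in Doxo and 72.05 to 123 CPM in Doxo+Cyta (log2 fold change -0.15, SE 0.17, adjusted p = 0.669). ABCG2, another efflux pump gene, was at 1.01 to 2.30 CPM in Doxo, 1.13 to 1.86 CPM in Doxo+Cyta and 0.103 and 0.179 CPM in NT (log2 fold change between the relapse groups -0.06, SE 0.40, adjusted p = 0.952). Of 27 ABC transporter genes none was called, and 1 was higher without Doxo replicate 4. That was ABCB8, with a log2 fold change of 0.97 (adjusted p = 0.011) in that fit and 0.66 (adjusted p = 0.0989) with all libraries.

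Cell-cycle genes moved little. Of 50 mitosis genes, 3 were lower (the centromere guardian gene SGOL1, the kinesin gene KIF23 and CDCA8 of the chromosomal passenger complex) and none higher. That is 6% lower, against 2.32% of all tested genes. The median was only -0.14, with 43 of the 50 negative, and 7 genes were lower without Doxo replicate 4 and none without Doxo+Cyta replicate 19. SGOL1 and CDCA8 were lost without Doxo replicate 5 or 6 or Doxo+Cyta replicate 19, and KIF23 without any library but Doxo replicate 4. DNA replication genes gave no call in 48 (median 0.07), but 10 were higher without Doxo replicate 4, where the median was 0.31. The mean log2 CPM of the replication list was 5.76 in Doxo replicate 4 against 5.19 and 5.27 in Doxo replicates 5 and 6, with 5.42, 5.72 and 5.39 in Doxo+Cyta and 5.85 and 5.90 in NT. Replicates 4 and 20 were thus the highest of their groups for this list. Of 22 genes of CDK inhibition and quiescence, CDKN1A and the glucocorticoid-responsive factor gene KLF9 (log2 fold change -0.73, adjusted p = 0.0467, called in 1 of the 6 fits, that without Doxo replicate 4) were lower. CDKN1B (p27) was at 35.0, 59.2 and 68.3 CPM in Doxo and 85.0, 56.2 and 89.2 CPM in Doxo+Cyta (log2 fold change 0.50, SE 0.21, adjusted p = 0.218), CDKN1C (p57) had 0.29 (adjusted p = 0.764) and TXNIP -0.40 (adjusted p = 0.276). DNA repair genes gave no call in 48.

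The respiratory chain and ribosome lists showed how 1 library can set a list's direction. Of 77 nuclear OXPHOS genes 70 had a positive log2 fold change with a median of 0.18, and without Doxo+Cyta replicate 20 the median was -0.0047. Their mean log2 CPM was 6.93 in replicate 20 and between 6.44 and 6.50 in the other 5 libraries. Only CYCS, the cytochrome c gene, was called, and it was lower (log2 fold change -0.39, adjusted p = 0.0431), a call kept in 1 of the 6 fits, that without replicate 20. Of 79 ribosomal protein genes 73 were positive and none was called, with a median of 0.11 that became -0.08 without replicate 20. Ribosome biogenesis gave 2 lower genes of 74 (5 without Doxo+Cyta replicate 20 and 1 without replicate 19), a share of 2.7% that is near the 2.32% of all tested genes. They were the nucleolar helicase gene DDX21 (-0.69, adjusted p = 0.0275) and RRN3, an initiation factor of RNA polymerase I (-0.57, adjusted p = 0.00845). RRN3 was called in all 6 fits but not with offsets for length and GC content (log2 fold change -0.34, adjusted p = 0.0873), and DDX21 was lost without Doxo replicate 4 or 5 or Doxo+Cyta replicate 19. RRN3 is annotated on 2 contigs.

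Lineage genes held few differences. HBE1, the embryonic globin gene, was at 1190, 1199 and 1239 CPM in Doxo and at 461, 597 and 664 CPM in Doxo+Cyta, with 176 and 151 CPM in NT (a log2 fold change of -1.08 with SE 0.27, adjusted p = 0.045). The groups did not overlap, yet the call was lost when any 1 of the 6 libraries was left out, with log2 fold changes between -1.18 and -0.93. PPOX, an enzyme gene of heme synthesis, was higher and called in all 6 fits, at 19.7, 21.1 and 22.3 CPM in Doxo, 42.4, 36.2 and 32.2 CPM in Doxo+Cyta and 38.4 and 35.2 CPM in NT (a log2 fold change of 0.81 with SE 0.14, adjusted p = 0.00652). Its adjusted p was 0.0509 with offsets for length and GC content and 0.0629 with only the 2 groups in the model. The other 21 genes of the globin and heme list did not pass. The 35 erythroid membrane and factor genes, 18 mast cell and basophil genes and 21 stem and progenitor genes gave no call, with medians of 0.04, 0.15 and 0.05. With a library left out, the erythroid list still gave none and the other 2 lists at most 1. In the stem list that was ANGPT2, higher without Doxo replicate 4 (log2 fold change 0.97, adjusted p = 0.00559), where the median of the list was -0.03. CD74 (the MHC class II invariant chain), the integrin gene ITGAX and NKG7, a granule gene of cytotoxic cells, were higher by 1.25, 1.04 and 1.10, at levels under 10 CPM in every library. Each was called in 2 of the 6 fits, with adjusted p up to 0.165, 0.152 and 0.125. HDAC7, a class II histone deacetylase, was the only called epigenetic regulator of 33 (0.40, adjusted p = 0.0445), kept only without Doxo replicate 4. IRF1 was the only called interferon gene of 56, lower by -0.62 (adjusted p = 0.0467), and was kept only without replicate 4 or 20.

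The hypoxia list had calls in both directions. Of 44 genes 4 were lower (9.09%, against 2.32% of all tested genes) and 2 higher (4.55%, against 1.07%), with a median of 0.0023. Without Doxo+Cyta replicate 19, 1 was lower and none higher. The higher genes were ANKRD37 (log2 fold change 1.00, adjusted p = 0.0328) and MIR210HG, the host transcript of a hypoxia-induced microRNA (0.87, adjusted p = 0.0192). The lower ones included the adrenomedullin gene ADM (-1.03, adjusted p = 0.0256), the glycolysis regulator gene PFKFB3 (-0.53, adjusted p = 0.0453) and JMJD6 (-0.41, adjusted p = 0.0466). These 5 genes were each lost without Doxo replicate 5 and without Doxo+Cyta replicate 19. Glycolytic enzyme genes did not pass, among them LDHA (0.0025), PGK1 (-0.0033) and ENO1 (0.016). Of the 33 lists with tested genes, 13 gave no call, and none had more calls than the immediate early and p53 lists. The 13 included, beside those above, cholesterol and lipid genes (33 tested, median 0.01), histone genes (15, 0.03), snoRNA hosts (16, 0.11) and non-blood markers (6, 0.13).

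The change also differed with gene length, mostly through 1 library, and with base composition, through several. In 5 classes of about equal size by summed exon length, the median log2 fold change went from 0.14 in genes of 43 to 1752 bases through 0.07, 0.01 and -0.06 to -0.12 in genes of 5539 bases or more. This length is summed over every contig on which a gene is annotated. It is therefore too long for genes with several copies, such as BRD2 (33211 bases on 7 contigs). Doxo+Cyta replicate 20 alone went from 0.30 above the mean of the 6 libraries in the shortest class to 0.28 below it in the longest (-0.28), while the other 5 libraries stayed between -0.09 and 0.12 in every class. Without replicate 20 the class medians were 0.02, 0.01, -0.01, -0.02 and -0.01. By GC content of the longest transcript, the medians ran from -0.15 in the lowest class to 0.19 in the highest, and from -0.05 to 0.07 without replicate 20. The range was -0.20 to 0.29 without Doxo replicate 4 and -0.11 to 0.15 without both replicates 4 and 20, so that it was still present without these libraries. From the lowest to the highest GC class, Doxo+Cyta replicate 20 rose from -0.30 to 0.32 relative to the mean of the 6 libraries, and Doxo replicates 5 and 6 fell from 0.14 to -0.16 and from 0.17 to -0.14. Genes called lower had a median summed exon length of 3979 bases and a median GC content of 44.3%, genes called higher 2735 bases and 56.2%, and all tested genes 3166 bases and 48.1%. The part that RNA integrity or library preparation had in replicate 20 was not tested. With offsets for length and GC content in the model, added after the data were seen, 25 immediate early genes and 13 p53 targets were lower and none of either list was higher. In that fit, of the 12941 genes with a GC value, 7 antisense names and 7 LINC names were higher, and the OXPHOS and ribosomal protein medians were 0.06 and -0.03. Of 57 called genes of the naming rule in it, 7 lost their call, CYCS (adjusted p = 0.52), SLC7A11 (0.189), RRN3 (0.0873), CD74 (0.0747), ICAM5 (0.0709), MAPK8IP2 (0.0588) and PPOX (0.0509).

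Along the chromosomes, the medians of 269 windows of 10 Mb with at least 15 tested genes ran from -0.29 to 0.43, and the groups' libraries did not overlap in 40 of them. That share of windows is below the 21% of single tested genes whose groups did not overlap. The count is therefore no evidence of regional differences. In the window of chromosome 6 from 0 to 10 Mb (37 tested genes, median log2 fold change 0.29) all 3 Doxo+Cyta libraries lay above the mean of the 6, at 0.14, 0.07 and 0.22, and all 3 Doxo libraries below it, at -0.16, -0.03 and -0.14. Its median stayed between 0.20 and 0.30 with any library left out, although no single gene in it was called. The highest median was that of chromosome 22 from 50 Mb to its end (24 genes, 0.43), where the median GC content was 62.4% and the value ran from 0.28 without Doxo+Cyta replicate 20 to 0.62 without Doxo replicate 4. TRABD (0.60), MAPK8IP2 (1.40) and MOV10L1 (0.98) were its called genes, and their calls were kept in 2, 0 and 1 of the 6 fits. The lowest medians were those of chromosome 21 from 20 to 30 Mb (16 genes, -0.29, which became -0.07 among genes of at least 5 CPM) and of chromosome X from 150 Mb (79 genes, -0.28). In the X window Doxo+Cyta replicates 19 and 22 lay at -0.40 and -0.18 and replicate 20 at 0.22, within the Doxo range of 0.09 to 0.23. Its value was -0.13 without replicate 19 and -0.43 without replicate 20, and the LIM domain gene ZNF185 (-0.92) was the only called gene in it. Copy number was not measured here.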

How the data were processed

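RNA of the 12 samples was sequenced by a company as paired-end TruSeq libraries. Per the labels, the study's methods and the file header, the authors trimmed and filtered the reads, aligned them to GRCh38 with Bowtie2 2.2.8 and counted fragments per gene with featureCounts 1.6.0 without regard to strand. The deposited values are these whole counts, not normalized. Total counts of the 6 relapses ranged from 14155038 to 17823014, and 3 counts correspond to 0.175 to 0.209 CPM, a limit for counting error only. No column was without a sample. Of 26485 genes, 4 lacked a count and 14164 passed filterByExpr.

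From these counts 1 quasi-likelihood model of all 12 samples was fitted (edgeR 4.0.16 under R 4.3.3, TMM scaling, glmQLFit, then glmQLFTest). Each test was two-sided, with Benjamini-Hochberg adjustment over all tested genes. Standard errors were taken from the fold change and the square root of its F. The fit was tested on simulated data. CPM use TMM factors, and log2 CPM a prior count of 2. No pair of libraries of a group was a duplicate. The labels speak of biological replicates and name no batch. Alternatives were DESeq2 1.42.0, other scalings and filters, libraries drawn down to the smallest total, a model of the 2 groups, left-out libraries and, added after the data were seen, offsets for length and GC content (12941 genes with a GC value, 91.4%). GC values come from GENCODE 44 and promoters from RefSeq. The members, the 34 gene lists and the tests were chosen with earlier results of these data known. Of these lists 1, the genes encoded in mitochondrial DNA, had no member in the table.

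Genes named were, per direction, the 10 largest folds past 2-fold at an adjusted p under 0.01 whose libraries did not overlap and whose higher group averaged 1 CPM or more, the 6 smallest p-values with at least 100 CPM, up to 4 called members of each list or, where none was called, the 2 with the smallest p, genes of drug handling and the cell cycle fixed by name, and 3 called genes in each named window. A gene that this rule names is not reported here, though it stays in the counts. Other members of the immediate early, p53, ERK, hypoxia, apoptosis and drug lists were named after their values were seen. Figures were drawn with matplotlib 3.10.9 from tables made with Python 3.11.15, numpy 2.4.6 and pandas 2.3.3.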

Additional observations from a re-analysis of the deposited data

How the results depend on the processing

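With DESeq2, 115 genes passed 2-fold at an adjusted p under 0.01 (42 higher, 73 lower) and 909 an adjusted p under 0.05 (334 higher, 575 lower), against 53 and 481. With only the 2 groups in the model the counts were 2 (0 higher, 2 lower) and 67 (6 higher, 61 lower). When genes of low count were kept, 85 genes, 23 of them higher, passed the first limits. Without both replicates 4 and 20, 98 (37 higher) passed the first limits and 1261 (533 higher, 728 lower) the second. Leaving out 1 library gave 6 to 75 genes at the first limits (0 to 23 higher, 6 to 58 lower) and 130 to 877 at the second (24 to 423 higher, 106 to 454 lower). Upper-quartile scaling moved the split at an adjusted p under 0.05 from 152 higher and 329 lower to 205 higher and 249 lower, with a median over all genes of 0.06. No result changed sign among the 65 named genes that were called, and 20 of them kept their call under every alternative. Of 39 named genes that were not called, 16 passed under at least 1 alternative. The causes of these moves were not tested. No paired analysis was possible because the groups share no replicate numbers. With 3 libraries a group, and 2 of the 6 apart from their groups, a gene that did not pass is not shown to be equal, and genes of about 1 CPM rest on few counts.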
